A study of Mus musculus with 12 samples.

Results

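Mitochondrial ribosomal protein loci are described here in mouse pluripotent cells. They were taken as every locus whose gene name begins with Mrpl or Mrps followed by a number and that has 3 or more of its 12 library values at 1 FPKM or above. The name pattern matched 75 loci and all 75 passed the filter, among 12320 named loci that passed it and 27914 loci in all. By name, 46 belong to the large subunit (Mrpl) and 29 to the small subunit (Mrps). FPKM is scaled for length and for the size of the library, so that levels of different loci can be set side by side. The level is uncertain where a locus shares its interval or its listed name with another gene. How the libraries were scaled to each other is not given in the sources used here.

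The mitochondrial ribosome sits at the inner mitochondrial membrane and translates the few proteins that mitochondrial DNA encodes, all of them subunits of the respiratory chain and of ATP synthase. Its ribosomal RNAs are made inside the organelle, but its proteins are encoded in the nucleus, translated in the cytosol and imported. Some of these proteins descend from bacterial ribosomal proteins, and others are specific to mitochondria. Naive pluripotent cells are known to respire more than primed cells, which lean further towards glycolysis.

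The libraries came from C57 Bl/6J cells that form 4 groups of 3. Naive embryonic stem cells (ESC) were wild-type, knocked out for Sirt1 (Sirt1KO), or knocked out for Sirt1 and knocked down for Otx2 (Sirt1KO Otx2KD), and the fourth group held wild-type cells turned into epiblast-like cells (EpiLC). ESC were kept naive on gelatin in N2B27 with LIF, 1 uM PD0325901 (a MEK inhibitor) and 3 uM CHIR99021 (a GSK3 inhibitor). EpiLC were derived from ESC on fibronectin in 48 h with 12 ng/ml Fgf2, 20 ng/ml Activin A and 1% serum replacement. In comparisons with them the medium and the state cannot be told apart. The study set the changes of this naive to primed step beside those that follow when Sirt1 is lost and Otx2 is knocked down. The labels leave out the method of the Otx2 knockdown. They also do not give which part of Sirt1 was deleted, how many clones were used or whether replicates are separate cultures, so p-values measure only the spread between these libraries.

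The labels were checked against marker levels. The mean level of Sirt1 was 25.8 ± 0.412 FPKM for wild-type ESC and 33.2 ± 1.24 for EpiLC, against 15.5 ± 0.196 in Sirt1KO and 15.6 ± 0.492 in Sirt1KO Otx2KD (mean ± SD, n = 3, as for all levels below), lower in every knockout library but not absent. Otx2 was at 7.38 ± 0.458, 100.2 ± 3.45, 27.0 ± 6.36 and 6.07 ± 0.401 FPKM in the same order. The summed FPKM of 7 naive markers was 933.8 to 947 for wild-type ESC and 227.6 to 233.7 for EpiLC, and that of 6 primed or formative markers was 29.4 to 32.4 and 748.4 to 766.1. In Sirt1KO these sums were 726.4 to 840.7 and 146.4 to 219.8, and in Sirt1KO Otx2KD 928.3 to 946.6 and 37.8 to 40.5. All 15 fibroblast or feeder markers were found, none at 0 in every library of a group. They summed to 339.6 to 387.8 FPKM (wild-type ESC), 210.4 to 215.3 (EpiLC), 172.4 to 184.5 (Sirt1KO) and 501.1 to 504.1 (Sirt1KO Otx2KD). Of these 15, limma called 9 lower and 2 higher in EpiLC and 15 lower in Sirt1KO than in wild-type ESC, and 15 higher in Sirt1KO Otx2KD than in Sirt1KO. The 8 trophoblast markers, 5 of them tested, summed to 86.7 to 91.9 FPKM (wild-type ESC), 19.8 to 24.0 (EpiLC), 66.8 to 67.8 (Sirt1KO) and 66.7 to 67.7 (Sirt1KO Otx2KD), with 4 called lower and 1 higher in EpiLC than in wild-type ESC. Relative to wild-type ESC, Sirt1KO had 4 of the 5 called higher and 1 lower, although the sum was lower. Relative to Sirt1KO, Sirt1KO Otx2KD had 1 called higher and 4 lower, with overlapping sums. The 8 primitive endoderm markers, 3 of them tested, summed to 5.25 to 5.34 FPKM (wild-type ESC), 5.71 to 6.39 (EpiLC), 8.36 to 9.11 (Sirt1KO) and 9.72 to 10.8 (Sirt1KO Otx2KD). None was at 0 in every library of a group. All 3 tested were called higher in Sirt1KO Otx2KD than in wild-type ESC. Most of these marker sums differed between the groups compared below, and their part in those comparisons was not tested. In bulk RNA, fewer cells of a type and less RNA per cell cannot be told apart. Relative depth, read from the smallest steps between FPKM values, ranged from 0.767 to 1.33 of the first wild-type ESC library.

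Sequence was drawn from the genes' promoters. The promoters of 66 of the 75 genes were found in RefSeq (build GRCm38.p6) as windows from 250 bases before to 50 bases after the gene's start. The 8-base motif of the factor YY1, written AANATGGC, stood on either strand in 20 of the 66 (30.3%), against 10.1% of 8537 promoters of tested loci and 6.96% of 27025 promoters in the table. The ETS-family motif CCGGAAG, which GABP reads, stood in 23 (34.8%), against 20.2% and 9.93%, and its last 3 letters can also be the first 3 of the YY1 motif. The core of the NRF1 motif, given here by name only, stood in 6 (9.09%), against 5.96% and 2.56%, all 6 in promoters of large subunit genes, of which 40 had a window. At least 1 of the 3 motifs was in 40 of 66 promoters (60.6%), against 32.1% of those of tested loci. YY1, GABP and NRF1 are known regulators of nuclear genes for mitochondrial proteins. A match describes letters in a window and is no measured site.

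Windows of 6 genes that the results below turn on are shown 5′ to 3′ in the direction of the gene, with motif letters in capitals. The window of Mrps24 (chr11:5707652-5707951, minus strand), the member with the largest differences between groups, holds the YY1 motif 36 bases after the start. The window of Mrpl45 (chr11:97315466-97315765, plus strand), a large subunit gene of the same chromosome whose RNA fell in all 3 comparisons with wild-type ESC, holds the NRF1 motif 38 bases before the start and, on the opposite strand, 15 bases after it. The window of Mrpl35 (chr6:71823735-71824034, minus strand), one of the pair of chromosome 6 members that rose most in Sirt1KO, holds the YY1 motif 23 bases after the start. The window of Mrps12 (chr7:28741772-28742071, minus strand), which fell and rose with the groups, holds the ETS motif at its start and the YY1 motif on the opposite strand 199 bases before it. Mrps11 (chr7:78782881-78783180, plus strand) and Mrpl46 (chr7:78783040-78783339, minus strand) are a head-to-head pair of a small and a large subunit gene, and their windows overlap by 141 bases. The Mrps11 window holds the YY1 motif on the opposite strand 107 bases before the start, outside the overlap, and the Mrpl46 window holds none of the 3 motifs.
Mrps24: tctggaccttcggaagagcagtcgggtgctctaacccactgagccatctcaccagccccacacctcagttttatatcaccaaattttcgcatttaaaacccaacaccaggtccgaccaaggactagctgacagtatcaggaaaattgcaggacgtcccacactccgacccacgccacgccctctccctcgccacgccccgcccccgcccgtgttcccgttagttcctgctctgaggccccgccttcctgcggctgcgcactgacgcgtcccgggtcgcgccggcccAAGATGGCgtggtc
Mrpl45: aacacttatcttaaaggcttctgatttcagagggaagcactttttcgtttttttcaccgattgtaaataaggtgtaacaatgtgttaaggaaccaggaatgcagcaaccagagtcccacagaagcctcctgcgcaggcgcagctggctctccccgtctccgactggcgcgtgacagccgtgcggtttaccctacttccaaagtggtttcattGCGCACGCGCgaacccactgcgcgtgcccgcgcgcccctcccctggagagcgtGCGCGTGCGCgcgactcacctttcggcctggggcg
Mrpl35: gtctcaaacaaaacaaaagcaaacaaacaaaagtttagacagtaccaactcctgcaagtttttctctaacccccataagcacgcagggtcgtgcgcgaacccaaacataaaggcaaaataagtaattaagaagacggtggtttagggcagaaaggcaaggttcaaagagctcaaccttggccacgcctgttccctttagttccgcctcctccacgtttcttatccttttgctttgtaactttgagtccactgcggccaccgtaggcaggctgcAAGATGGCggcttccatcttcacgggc
Mrps12: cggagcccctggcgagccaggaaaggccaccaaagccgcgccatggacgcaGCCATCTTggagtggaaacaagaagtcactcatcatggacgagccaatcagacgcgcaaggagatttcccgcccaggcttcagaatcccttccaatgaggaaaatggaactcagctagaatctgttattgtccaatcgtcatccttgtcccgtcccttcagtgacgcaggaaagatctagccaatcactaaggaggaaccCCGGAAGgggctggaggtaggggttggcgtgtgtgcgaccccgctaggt
Mrps11: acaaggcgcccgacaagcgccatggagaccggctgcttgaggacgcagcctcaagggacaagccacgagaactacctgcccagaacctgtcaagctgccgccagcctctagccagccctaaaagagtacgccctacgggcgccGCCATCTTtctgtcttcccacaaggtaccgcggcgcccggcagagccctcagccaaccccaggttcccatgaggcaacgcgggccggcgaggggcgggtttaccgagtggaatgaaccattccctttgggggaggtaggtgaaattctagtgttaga
Mrpl46: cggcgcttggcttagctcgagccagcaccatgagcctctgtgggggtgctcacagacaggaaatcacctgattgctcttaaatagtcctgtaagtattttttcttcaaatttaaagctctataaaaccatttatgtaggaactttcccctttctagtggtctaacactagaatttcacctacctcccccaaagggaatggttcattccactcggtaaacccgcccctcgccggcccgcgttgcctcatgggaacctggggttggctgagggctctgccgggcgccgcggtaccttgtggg

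Mitochondrial ribosomal protein loci were expressed well above the typical locus in every group. The median of their group means was 52.1 FPKM (wild-type ESC), 44.3 (EpiLC), 49.6 (Sirt1KO) and 44.8 (Sirt1KO Otx2KD). The same median over all tested loci was 11.3, 10.7, 10.9 and 11.1. In wild-type ESC 56 of the 75 lay between 20 and 100 FPKM, 9 above and 10 below. The highest means over all libraries belonged to Mrpl12 (a stalk protein that also binds the mitochondrial RNA polymerase) at 144.8 FPKM, Mrpl52 at 138.6, Mrpl33 at 121.7, Mrpl34 at 118.6 and Mrpl18, a protein of the central protuberance, at 109.2. The lowest belonged to Mrpl23 at 0.913 FPKM, Mrps33 at 4.72, Mrps36 at 6.00, Mrpl41 at 6.58 and Mrpl19 at 9.47. Mrpl23 was the member nearest the filter, with a third-highest value of 1.49 FPKM, followed by Mrps33 at 5.26 and Mrps36 at 7.11, and no matching locus fell below it.

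Replicates of most members lay close together. Over the 300 combinations of a member and a group, the coefficient of variation had a median of 4.68%, and only 4 exceeded 20%, the highest being 67.0% for Mrpl23 in EpiLC. Differences between groups were mostly modest: the ratio of the highest to the lowest group mean ran from 1.07 to 2.92 with a median of 1.40, and it exceeded 2 for 5 members and was under 1.2 for 7. Wild-type ESC held the highest mean of 33 members, Sirt1KO of 23, EpiLC of 10 and Sirt1KO Otx2KD of 9. EpiLC held the lowest mean of 39 members, Sirt1KO Otx2KD of 24, wild-type ESC of 7 and Sirt1KO of 5.

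**Figure D1:**
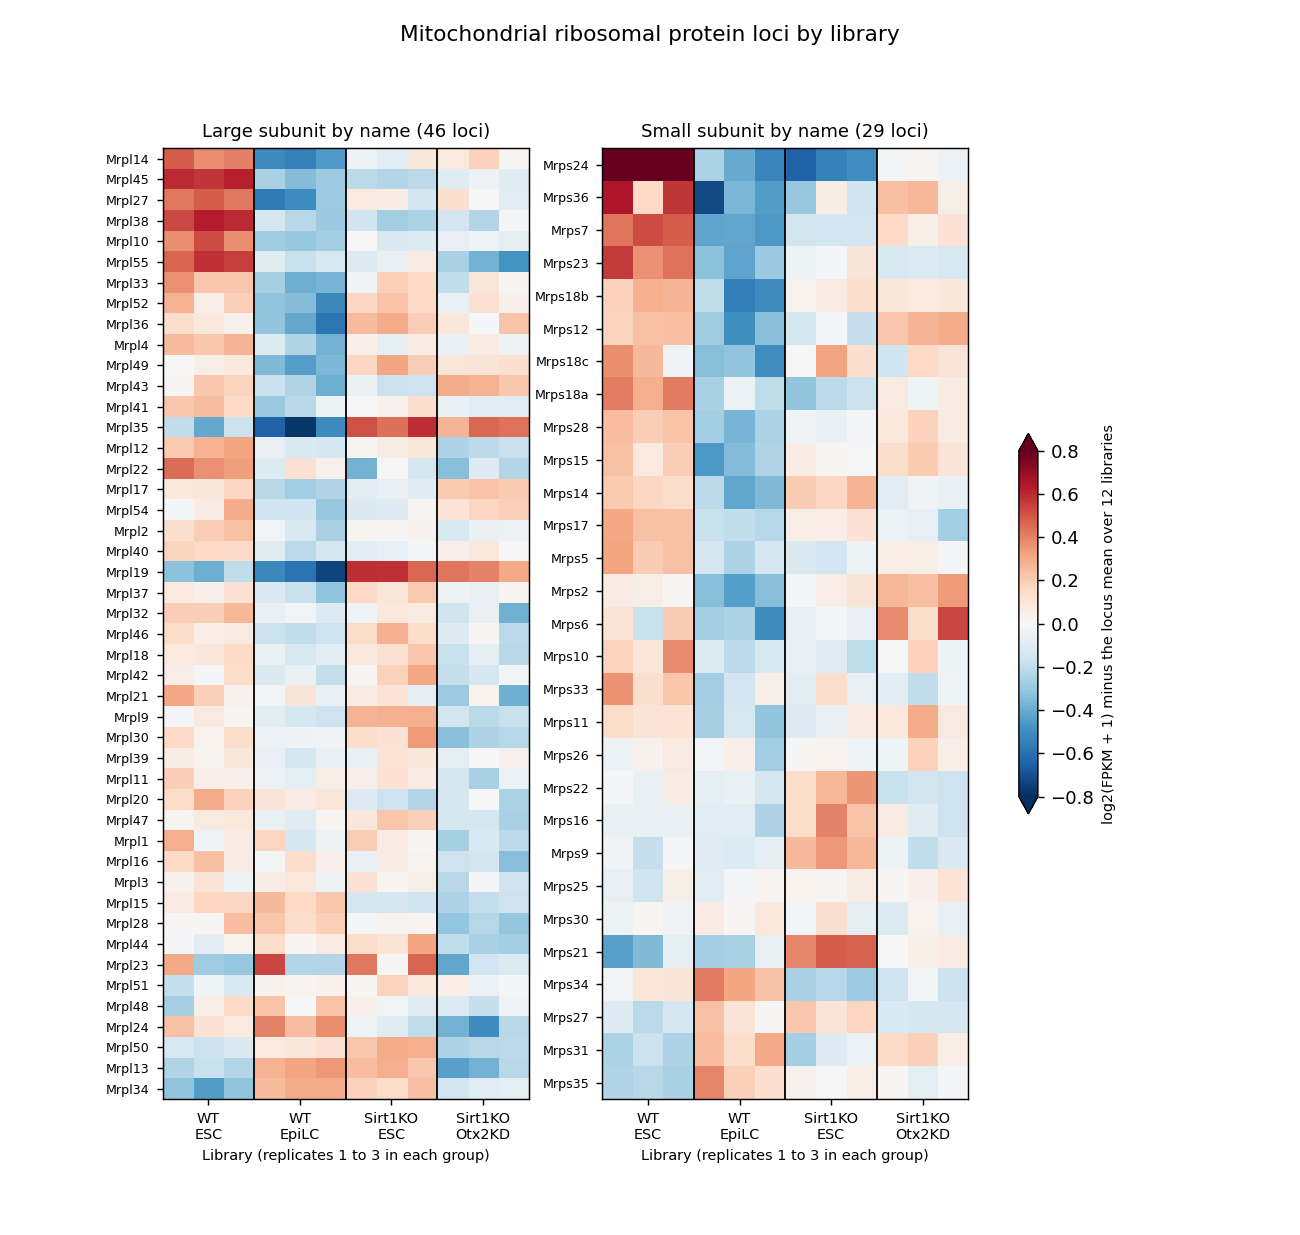
Each row is a locus and each column a library, in 4 groups of 3 replicates, and colour gives log2(FPKM + 1) minus the mean of that locus over the 12 libraries, cut at 0.8. Rows are ordered by the EpiLC minus wild-type ESC difference, and most large (46) and small (29) subunit loci are red in wild-type ESC and blue in EpiLC.

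Tests used limma on log2(FPKM + 1), a scale that understates changes of low loci, with Benjamini-Hochberg adjustment over all 12320 tested loci at 0.05. A locus is called higher or lower when its adjusted p is under that threshold, and log2 changes are given ± SE with 3 libraries a group. A large share of all tested loci was called in each comparison, so counts of members are given beside that share. For the members as a list only counts and medians are given, as a description.

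EpiLC had lower RNA levels than wild-type ESC for most mitochondrial ribosomal protein genes. Of the 75, 47 (62.7%) were lower, 9 (12.0%) were higher and 19 were not called, where 38.8% of all tested loci were lower and 35.8% higher. The median log2 change of the members was -0.32, against -0.021 over all tested loci. The groups were apart, with no overlap of libraries, for 50 members on the lower side and 9 on the higher side, where 39.7% and 37.1% of all tested loci did the same. On the log2(FPKM + 1) scale only 1 member fell by at least 1 log2 unit, Mrps24, where 8.58% of tested loci did. The low locus Mrps36 came close at -0.97, a change that this scale understates. Both subunits took part: 29 of 46 large subunit loci were lower and 5 higher (median -0.28), and 18 of 29 small subunit loci were lower and 4 higher (median -0.39).

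Among small subunit loci the largest fall in EpiLC was that of Mrps24, whose protein is the counterpart of bacterial S3 near the entry of the mRNA channel. Its locus (mm9 chr11:5603985-5607702) read 169, 182 and 180.3 FPKM among wild-type ESC and 75.3, 67.6 and 61.9 in EpiLC, so that the lowest ESC library was above every EpiLC library. The log2 change was -1.37 ± 0.060 (limma, adjusted p = 1.05e-10). Mrps7, the counterpart of bacterial S7 in the head of the subunit, went from 81.4, 86.8 and 84.4 to 44.7, 44.8 and 43.5 FPKM, a log2 change of -0.91 ± 0.038. The groups again did not overlap. Both genes lie on chromosome 11, whose 1039 tested loci had a median of -0.46, and with each chromosome centred on its own median the changes were -0.89 and -0.43. Mrps12, a protein of the decoding centre, went from 112, 116 and 117 to 80.9, 70.1 and 78.3 FPKM (log2 change -0.59 ± 0.053). The 3 paralogs related to bacterial S18, which occupy different places in the ribosome, all fell: Mrps18a from 61.5 ± 2.89 to 41.98 ± 3.33 FPKM, Mrps18b from 46.4 ± 1.78 to 29.1 ± 4.0 and Mrps18c from 72.3 ± 10.1 to 47.7 ± 3.31, with log2 changes of -0.54, -0.66 and -0.58. Mrps36, named as a small subunit protein but known as a component of the 2-oxoglutarate dehydrogenase complex, fell from 8.36 ± 1.62 to 3.75 ± 0.603 FPKM (-0.97 ± 0.14).

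Of the 16 small subunit members with a bacterial counterpart, 13 (81.2%) were lower in EpiLC and 0 higher, where 38.8% of all tested loci were lower and 35.8% higher. Of the 10 that are specific to mitochondria, 3 (30.0%) were lower and 4 (40.0%) higher, shares near those of all tested loci. Those 4 were Mrps27, Mrps31, Mrps34 and Mrps35. Mrps18b, named above as a paralog related to S18, is counted among these 10 and was 1 of the 3 that were lower. These classes were drawn up after earlier results of these data were known, and the difference between them was not tested. Mrps35 read 44.7, 45.3 and 44.1 FPKM among wild-type ESC and 69.6, 60.4 and 58.2 in EpiLC, with no overlap (log2 change 0.48 ± 0.055, limma, adjusted p = 2.23e-06). Mrps31, on chromosome 8, rose from 40.2 ± 1.25 to 55.5 ± 3.27 FPKM (0.46 ± 0.061, but 0.058 and not called with chromosome 8 centred on its own median of all loci), and Mrps34 from 49.6 ± 2.44 to 59.8 ± 3.83 FPKM (0.26 ± 0.055).

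RNA levels fell in EpiLC for large subunit genes whose proteins sit at several places in the particle. Mrpl14, the counterpart of bacterial L14 at the face that meets the small subunit, read 75.9, 70.3 and 71.7 FPKM among wild-type ESC and 37.7, 36.8 and 39.2 in EpiLC (log2 change -0.92 ± 0.054, limma, adjusted p = 1.95e-09). Every ESC library stood well above every EpiLC library. Mrpl45, which anchors the ribosome to the inner membrane beside the peptide exit, went from 90.3, 88.9 and 92.1 to 49.4, 46.5 and 48.4 FPKM (-0.90 ± 0.035), also without overlap. In the stalk and its base, Mrpl10 fell from 81.97 ± 5.11 to 49.6 ± 0.517 FPKM and Mrpl12 from 173 ± 6.44 to 133 ± 3.49, with log2 changes of -0.71 and -0.38 (0.098 for Mrpl12 once chromosome 11 is centred on its own median), while Mrpl11, at 21.4 ± 1.36 and 19.6 ± 0.933 FPKM, was not called (adjusted p = 0.0882). In the central protuberance, the crown of the large subunit that faces the head of the small subunit, 6 of 7 members were lower, among them Mrpl27 from 27.99 ± 0.782 to 14.7 ± 1.61 FPKM (-0.89 ± 0.079) and Mrpl38 from 84.8 ± 3.19 to 48.2 ± 2.79 FPKM (-0.80 ± 0.058). Mrpl45, Mrpl10, Mrpl27 and Mrpl38 lie on chromosome 11, and with that chromosome centred on its own median their changes were -0.42, -0.24, -0.42 and -0.33, all still called. The protuberance member that was not called was Mrpl48, at 13.3 ± 2.10 and 15.03 ± 1.40 FPKM, and its listed interval is shared with Rab6a.

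The 5 large subunit loci that were higher in EpiLC were Mrpl13, Mrpl24, Mrpl34, Mrpl50 and Mrpl51. Mrpl34, the counterpart of bacterial L34 on chromosome 8, read 92.99, 85.5 and 93.1 FPKM among wild-type ESC and 139, 144 and 143 in EpiLC (log2 change 0.65 ± 0.040, limma, adjusted p = 3.08e-09). The median over the 680 tested loci of that chromosome was 0.40, and with the chromosome centred on its own median in each library the change of Mrpl34 was 0.25. Mrpl13, the counterpart of bacterial L13 on chromosome 15, read 59.1, 61.7 and 59.3 and 85.2, 87.3 and 89.1 FPKM (0.53 ± 0.048), and its groups did not overlap either. Mrpl24, a protein at the exit tunnel, rose from 108 ± 6.13 to 124 ± 7.08 FPKM (0.20 ± 0.070), and Mrpl50 from 33.3 ± 0.674 to 39.4 ± 0.691 FPKM (0.24 ± 0.037).

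**Figure D2:**
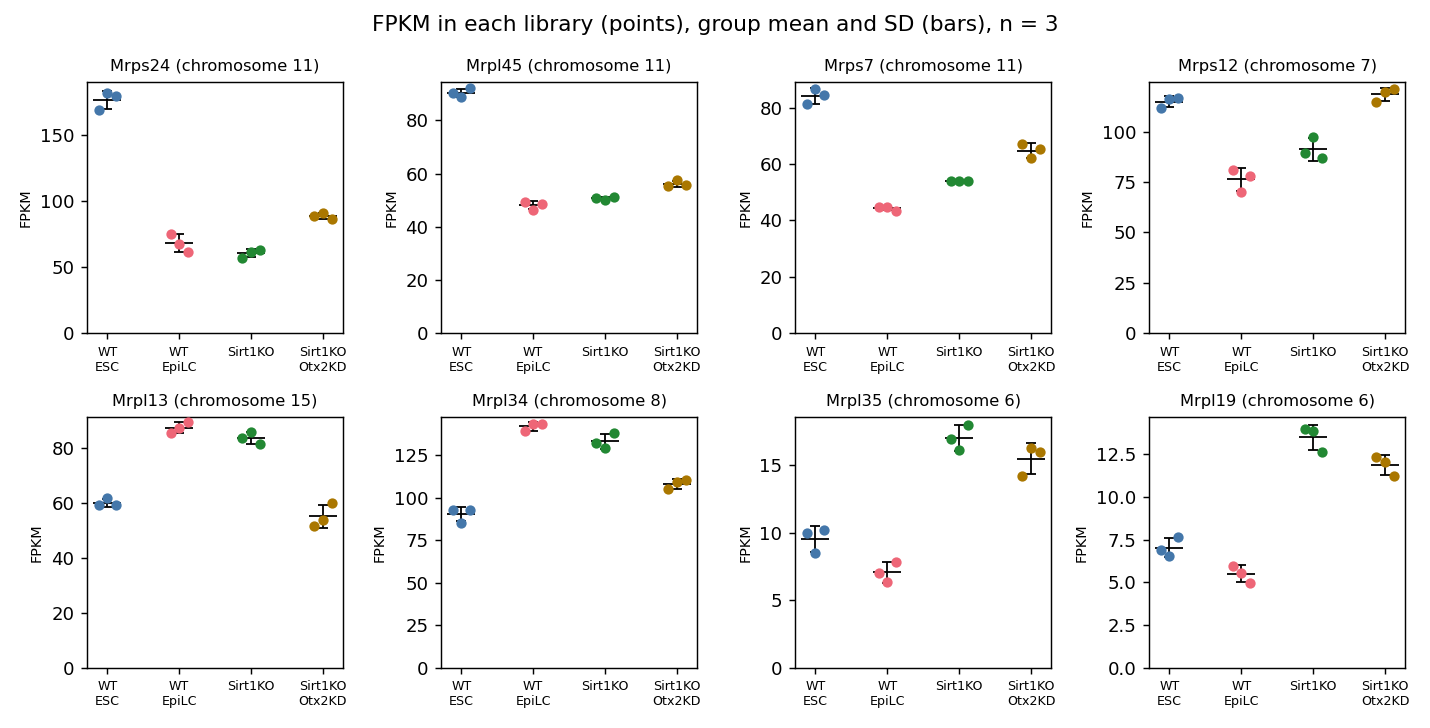
FPKM of 8 members in each library (points) with the group mean and SD (bars, n = 3), each axis starting at 0. Mrps24, Mrpl45 and Mrps7 are highest in wild-type ESC, Mrpl13 is high in EpiLC and Sirt1KO, and Mrpl35 and Mrpl19 are high in both Sirt1KO groups.

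In Sirt1KO ESC the members split in both directions relative to wild-type ESC. Of the 75, 31 (41.3%) were lower, 15 (20.0%) higher and 29 not called, where 32.7% of all tested loci were lower and 32.4% higher. The median log2 change was -0.091, against 0.0064 over all tested loci, and -0.021 without the 12 members on chromosomes 8 and 11. Of the 63 other members 21 were lower and 14 higher, a lower share of 33.3%, close to that of all loci. Groups did not overlap for 33 members on the lower side and 17 on the higher side (background 34.1% and 34.4%), and Mrps24 alone fell by at least 1 log2 unit (background 4.89%). By name, 18 of 46 large subunit loci were lower and 9 higher, and 13 of 29 small subunit loci were lower and 6 higher.

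The largest fall in Sirt1KO was again that of Mrps24, to 57.02, 61.5 and 63.2 FPKM in the 3 Sirt1KO libraries (log2 change -1.53 ± 0.060, limma, adjusted p = 8.74e-11). They reached into the lower end of the EpiLC range given above and were far below every wild-type ESC library. Mrpl45 was at 50.99, 50.2 and 51.2 FPKM (-0.82 ± 0.035), Mrpl38 at 47.8 ± 2.12 (-0.81 ± 0.058) and Mrps7 at 54.1, 53.98 and 53.9 (-0.63 ± 0.038). These 4 lie on chromosome 11, whose tested loci had a median of -0.49, and with it centred on its own median in each library their changes were -1.05, -0.33, -0.33 and -0.14 in the order given. Among members on other chromosomes, Mrps18a, which sits in the large subunit despite its name, fell to 40.1 ± 2.07 FPKM (-0.60 ± 0.059) and Mrpl14 to 53.6 ± 3.57 FPKM (-0.43 ± 0.054).

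The members that rose most in Sirt1KO were Mrpl19 and Mrpl35, counterparts of bacterial L19 and L35, both on chromosome 6. Mrpl19 (mm9 chr6:81873662-81915943) read 6.90, 6.56 and 7.63 FPKM among wild-type ESC and 13.95, 13.8 and 12.6 in Sirt1KO (log2 change 0.85 ± 0.073, limma, adjusted p = 1.86e-07). Mrpl35 (mm9 chr6:71762990-71773778) read 9.96, 8.47 and 10.2 and 16.9, 16.1 and 17.98 FPKM (0.78 ± 0.084, adjusted p = 1.88e-06). For both, every Sirt1KO library was above every wild-type ESC library, and EpiLC lay below both groups at 5.94, 5.57 and 4.96 and 7.05, 6.32 and 7.84 FPKM. The listed interval of Mrpl19 is shared with the locus AW146020, which changed by 1.10 in the same comparison, so its value is uncertain. Mrpl35 shares its interval with no named locus.

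Other members higher in Sirt1KO were Mrps21, Mrpl34, Mrpl13 and Mrpl50. Mrps21, the counterpart of bacterial S21, read 50.8, 53.97 and 65.8 FPKM among wild-type ESC and 91.01, 97.2 and 96.1 in Sirt1KO (log2 change 0.73 ± 0.081, limma, adjusted p = 4.29e-06). Mrpl13 rose to 83.3, 85.8 and 81.3 FPKM (0.47 ± 0.048), a range that overlaps that of EpiLC. Mrpl50 rose to 44.4 ± 1.44 FPKM (0.40 ± 0.037). Mrpl34 was at 133 ± 4.50 FPKM (0.55 ± 0.040), but chromosome 8 had a median of 0.46 over its tested loci, and with the chromosome centred on its own median in each library the change was 0.095 and no longer called (limma, adjusted p = 0.0573). In the small subunit Mrps9 rose from 46.1 ± 3.08 to 59.7 ± 2.03 FPKM, Mrps16 from 75.2 ± 0.302 to 94.2 ± 8.48 and Mrps22 from 32.2 ± 1.35 to 38.8 ± 2.88, with log2 changes of 0.37, 0.32 and 0.26.

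**Figure D3:**
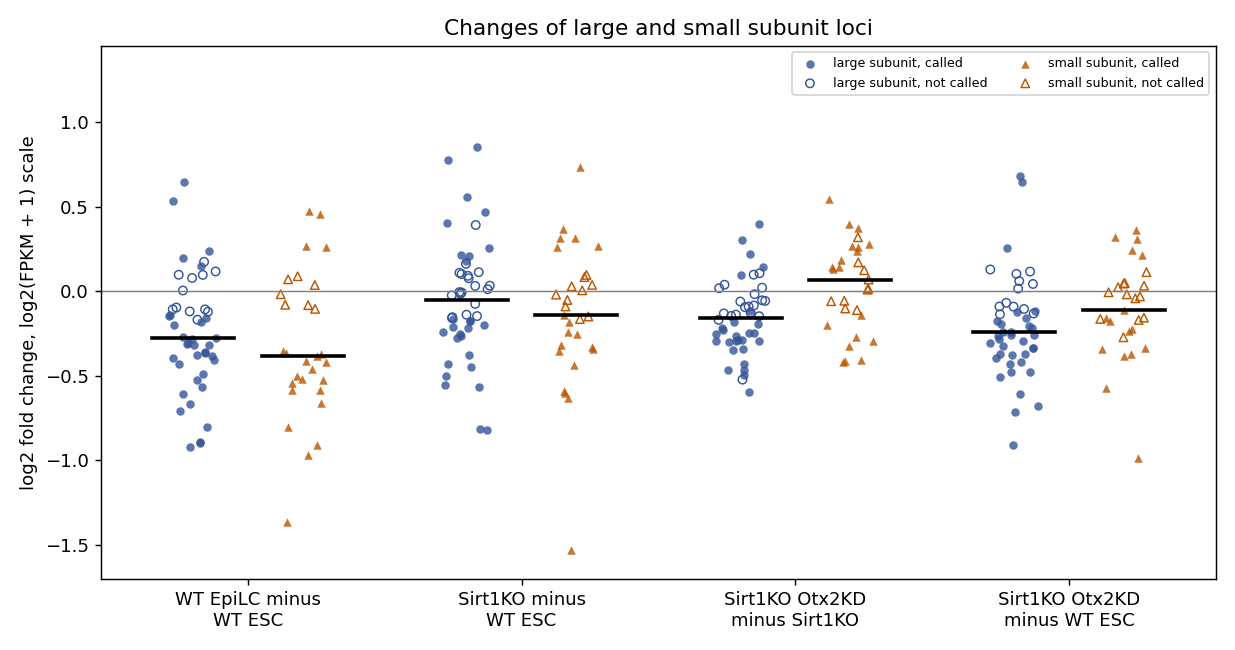
Each point is a locus and the vertical axis its log2 change on the log2(FPKM + 1) scale in 4 comparisons, filled where called by limma at an adjusted p under 0.05, with circles for the large and triangles for the small subunit and a black bar at the median of each. The medians lie below 0 for both subunits in EpiLC (-0.28 and -0.39), and for Sirt1KO Otx2KD minus Sirt1KO the large subunit median is below 0 (-0.16) and the small subunit median near it (0.068).

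With Otx2 knocked down in Sirt1KO cells, more large subunit loci were lower than higher, while the small subunit loci split in both directions. Of all 75 members 30 (40.0%) were lower than in Sirt1KO, 16 (21.3%) higher and 29 not called, where 31.5% of all tested loci were lower and 31.1% higher, and the median log2 change was -0.11 against -0.015. Groups did not overlap for 35 members on the lower side and 18 on the higher side (background 33.7% and 33.5%). Of the 46 large subunit loci 22 were lower and 5 higher (median -0.16). Of the 29 small subunit loci 8 (27.6%) were lower and 11 (37.9%) higher (median 0.068), shares near those of all tested loci. Without chromosomes 8 and 11, 19 of 38 large subunit loci were lower and 4 higher (median -0.18), and 7 of 25 small subunit loci were lower and 8 higher (median 0.016). With Mrps30 and Mrps18a, known large subunit proteins, counted there and Mrps36 left out, 22 of 48 large subunit loci were lower and 6 higher (median -0.15), and 8 of 26 small subunit loci were lower and 10 higher (median 0.042).

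The falls under the knockdown were led by Mrpl13, which read 51.6, 53.7 and 59.8 FPKM, below every Sirt1KO library and partly within the range of wild-type ESC (log2 change from Sirt1KO -0.60 ± 0.048, limma, adjusted p = 1.41e-07). Mrpl50 went from 42.8, 45.3 and 45.2 to 30.8, 31.4 and 31.4 FPKM (-0.50 ± 0.037), also with no overlap. Mrpl30, the counterpart of bacterial L30, fell from 83.9 ± 7.40 to 60.3 ± 2.34 FPKM and Mrpl9, the counterpart of bacterial L9, from 49.4 ± 0.336 to 35.5 ± 0.928, with log2 changes of -0.47 and -0.46. Mrpl44, a protein with an RNase III-like fold, fell from 37.98 ± 3.08 to 27.8 ± 0.827 FPKM (-0.43 ± 0.057). Mrpl55 fell from 51.01 ± 3.38 to 39.99 ± 3.13 FPKM (-0.34 ± 0.059). Of the 29 large subunit members with a bacterial counterpart, 15 (51.7%) were lower and 1 (3.45%) higher, where 31.5% of all tested loci were lower and 31.1% higher. The 1 that was higher was Mrpl17 at the exit tunnel, from 15.4 ± 0.228 to 19.2 ± 0.165 FPKM (0.30 ± 0.043).

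Of the 16 members that rose under the knockdown, 11 were small subunit loci by name. Mrps24 read 89.04, 90.9 and 86.8 FPKM, above every Sirt1KO library and well below every wild-type ESC library (log2 change from Sirt1KO 0.55 ± 0.060, limma, adjusted p = 3.26e-06). Mrps12 went from 89.5, 97.7 and 86.9 to 115, 119.7 and 121 FPKM (0.38 ± 0.053), with 1 library inside the range of wild-type ESC and 2 above it. Mrps6, the counterpart of bacterial S6, went from 32.9, 34.4 and 32.9 to 45.2, 38.1 and 50.4 FPKM (0.40 ± 0.11, adjusted p = 0.00873). Its locus is listed under a merged name with the transporter gene Slc5a3, and its value is uncertain for that reason. Mrps2 rose from 68.3 ± 2.72 to 80.7 ± 2.96 FPKM, Mrps5 from 39.6 ± 1.57 to 43.5 ± 1.18 and Mrps28, the counterpart of bacterial S1, from 74.5 ± 1.17 to 82.3 ± 3.76, with log2 changes of 0.24, 0.13 and 0.14. Among large subunit loci Mrpl43 rose from 40.8 ± 2.05 to 53.95 ± 1.55 FPKM (0.40 ± 0.062). Small subunit loci that went the other way were led by Mrps22 (-0.42 ± 0.052), Mrps9 (-0.41 ± 0.052) and Mrps21 (-0.41 ± 0.081).

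The head-to-head pair Mrps11 and Mrpl46, whose windows are printed above, moved in opposite directions under the knockdown. The listed loci lie 41 bp apart on chromosome 7 (mm9 chr7:85928016-85937874 and chr7:85920226-85927975). Mrps11 read 20.8, 21.5 and 23.6 FPKM in Sirt1KO and 23.8, 27.8 and 23.7 in Sirt1KO Otx2KD, a rise of 0.18 ± 0.068 (limma, adjusted p = 0.0321) in which the closest libraries are nearly equal. Mrpl46 read 42.4, 46.6 and 42.2 and 35.4, 38.4 and 32.6 FPKM, a change of -0.30 ± 0.056 (adjusted p = 0.000424), with no overlap. In EpiLC minus wild-type ESC both were lower, with log2 changes of -0.36 and -0.27. The pair was picked after its values were seen.

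The FPKM of each subunit was also summed per library. Large subunit loci summed to 2852 ± 30.6 FPKM for wild-type ESC, 2412 ± 47.5 for EpiLC, 2668 ± 43.0 for Sirt1KO and 2380.0 ± 51.6 for Sirt1KO Otx2KD. Small subunit loci summed to 1584 ± 19.2, 1222 ± 30.3, 1401 ± 36.9 and 1435 ± 14.5 FPKM in the same order, and the sums of the last pair of groups overlap (1360 to 1432 and 1426 to 1452). Medians were here taken within each library and averaged over the libraries of a group, unlike the medians of group means given earlier. For the large subunit loci they were 57.0, 43.5, 51.0 and 50.1 FPKM in that order, and for the small subunit loci 49.0, 43.4, 47.7 and 44.96. From Sirt1KO to Sirt1KO Otx2KD this small subunit median went down while the small subunit sum went up. The ratio of large to small was 1.79 to 1.81 for the 3 wild-type ESC libraries, 1.96 to 1.98 for EpiLC, 1.87 to 1.93 for Sirt1KO and 1.63 to 1.67 for Sirt1KO Otx2KD, and no 2 groups overlapped. Without the members on chromosomes 8 and 11 the group means were 1.80, 1.87, 1.79 and 1.60, wild-type ESC and Sirt1KO then overlapped, and Sirt1KO Otx2KD was still below the other 3 groups. Counted by place in the particle the means were 2.03, 2.24, 2.12 and 1.87. Sums weigh the most abundant loci most, and as scores over chosen members they were not tested.

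**Figure D4:**
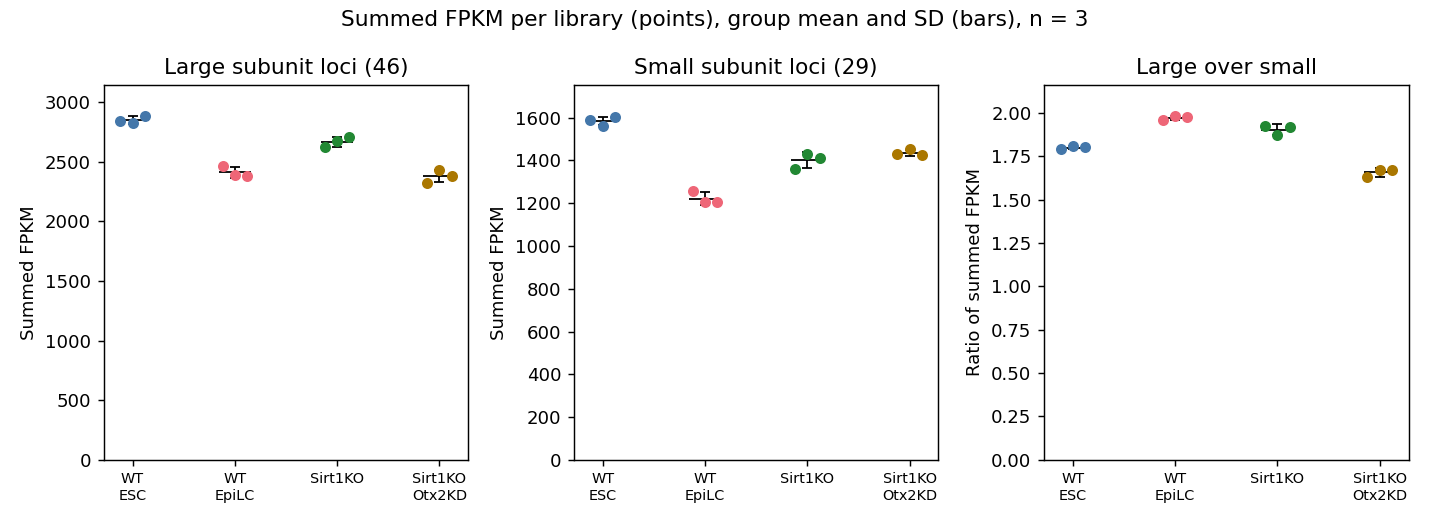
Summed FPKM of the large (46) and small (29) subunit loci and the ratio of these sums in each library (points), with group mean and SD (bars, n = 3) and axes from 0. EpiLC has the lowest small subunit sum and the highest ratio, and Sirt1KO Otx2KD the lowest ratio, 1.63 to 1.67.

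Against wild-type ESC, Sirt1KO Otx2KD was lower for 42 of the 75 members (56.0%), higher for 8 (10.7%) and not called for 25, where 26.8% of all tested loci were lower and 27.1% higher. The median log2 change was -0.18, against -0.0010. Of the large subunit loci 31 of 46 were lower and 3 higher (median -0.24), and of the small subunit loci 11 of 29 were lower and 5 higher (median -0.11). Mrps24 (-0.99 ± 0.060), Mrpl55 (-0.91 ± 0.059), Mrpl38 (-0.72 ± 0.058) and Mrpl45 (-0.68 ± 0.035) were the lowest on the log2 scale. These 4 lie on chromosome 11, whose tested loci had a median of -0.39, and with it centred on its own median in each library their changes were -0.58, -0.50, -0.31 and -0.27. Mrpl19 and Mrpl35 stayed high at 12.4, 12.04 and 11.2 and 14.2, 16.3 and 15.97 FPKM (0.68 ± 0.073 and 0.65 ± 0.084), and neither was called between both Sirt1KO groups (limma, adjusted p = 0.0569 and 0.199). Mrps21 was at 70.8 ± 1.76 FPKM (0.32 ± 0.081). This comparison and those of EpiLC and Sirt1KO share the wild-type ESC libraries.

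EpiLC was also set against both Sirt1KO groups. Against Sirt1KO, 41 members (54.7%) were lower and 8 (10.7%) higher, where 35.1% of all tested loci were lower and 34.0% higher (median log2 change -0.16 against -0.0099). Against Sirt1KO Otx2KD, 33 (44.0%) were lower and 19 (25.3%) higher, where 38.2% of all loci were lower and 36.0% higher (median -0.076 against -0.016), a split that became 31 lower and 28 higher under quantile normalization. In the latter comparison 16 large subunit loci were lower and 16 higher, and 17 small subunit loci were lower and 3 higher. Mrpl35 and Mrpl19 had the largest differences, at -1.16 ± 0.084 and -1.16 ± 0.073 relative to Sirt1KO (limma, adjusted p = 2.90e-08 and 7.53e-09). Mrpl36, the counterpart of bacterial L36, was at 41.8 ± 3.97 FPKM in EpiLC and 67.6 ± 2.37 in Sirt1KO (-0.68 ± 0.068). On the higher side stood Mrps34 (0.58 ± 0.055), Mrpl24 (0.45 ± 0.070), Mrps31 (0.37 ± 0.061) and Mrpl15 (0.35 ± 0.040), and against Sirt1KO Otx2KD also Mrpl28 (0.47 ± 0.055) and Mrpl13 (0.66 ± 0.048).

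Some members differed little between the groups. Mrps30, a large subunit protein despite its name, read 52.4, 54.7 and 52.9 FPKM for wild-type ESC, 56.6, 54.2 and 57.4 for EpiLC, 53.2, 59.1 and 51.3 for Sirt1KO and 49.9, 55.1 and 51.6 for Sirt1KO Otx2KD. The 4 ranges overlap, and it was called in none of the 6 comparisons, of which the largest log2 difference was 0.10 ± 0.052 (EpiLC minus Sirt1KO Otx2KD, limma, adjusted p = 0.0940). Mrps25, Mrps26 and the low and variable Mrpl23 were not called in any comparison either, and 8 members, Mrpl12, Mrpl24, Mrpl40, Mrps7, Mrps23, Mrps24, Mrps28 and Mrps34, were called in all 6. The listed interval of Mrps25 is shared with Nr2c2, so its value is uncertain. Mrpl42, a protein that has been assigned to either subunit, was at 99.6 ± 5.83, 87.8 ± 4.22, 108 ± 10.7 and 88.1 ± 5.23 FPKM in the order above.

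EpiLC minus wild-type ESC and Sirt1KO Otx2KD minus Sirt1KO share no library in their group means, so their calls are set side by side. The calls are not fully separate, because all groups were fitted together and share a common estimate of the spread. Of the 47 members lower in EpiLC, 13 were also lower under the knockdown, 14 were higher and 20 were not called. Of the 9 higher in EpiLC, 5 were lower under the knockdown, 2 higher and 2 not called. Of the 19 not called in EpiLC, 12 were lower under the knockdown, 0 were higher and 7 were not called there either. All 16 members that rose under the knockdown were called in EpiLC, 14 lower and 2 higher, the latter being Mrps31 (0.28) and Mrps34 (0.14). Over all tested loci, of the 3830 loci higher under the knockdown 62.9% were lower in EpiLC and 18.1% higher, and of the 3877 lower under it 57.0% were higher in EpiLC and 21.3% lower. Split by the EpiLC call, of the 4780 loci lower in EpiLC 824 were lower under the knockdown, 2408 higher and 1548 not called. Of the 4410 higher in EpiLC 2208 were lower, 692 higher and 1510 not called. Among loci not called in EpiLC 845 were lower, 730 higher and 1555 not called.

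The 75 loci lie on 17 chromosomes, and a whole-chromosome shift touches 12 of them. Over all 1039 tested loci of chromosome 11 the median log2 change from wild-type ESC was -0.46 for EpiLC, -0.49 for Sirt1KO and -0.39 for Sirt1KO Otx2KD, and over the 680 of chromosome 8 it was 0.40, 0.46 and 0.36. All 10 members on chromosome 11 were lower than wild-type ESC in each of these groups, with medians of -0.80, -0.56 and -0.59. In EpiLC 8 of these 10 lay below the median of the other loci of the chromosome, in Sirt1KO 7 and in Sirt1KO Otx2KD 9. The 2 on chromosome 8, Mrps31 and Mrpl34, were higher in EpiLC and in Sirt1KO Otx2KD. In the latter their changes were -0.019 and -0.12 once chromosome 8 is centred on its own median. In Sirt1KO Mrpl34 was called while Mrps31 was not (0.083 ± 0.061). Centred in the same way, Mrpl34 was not called in Sirt1KO (0.095). Mrps31 was then called lower there (-0.38 ± 0.0625, limma, adjusted p = 0.000133). Under the knockdown of Otx2, relative to Sirt1KO, all loci had a median of 0.069 on chromosome 11 and -0.10 on chromosome 8.

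The cause of the chromosome shift was not tested, so counts are also given for the 63 members elsewhere. In EpiLC 37 of them (58.7%) were lower than in wild-type ESC and 7 (11.1%) higher, with a median of -0.27. Of all tested loci 38.8% were lower and 35.8% higher. In Sirt1KO Otx2KD 32 (50.8%) were lower than in wild-type ESC and 6 (9.52%) higher (median -0.16), beside 26.8% and 27.1% of all tested loci. Relative to Sirt1KO, 26 (41.3%) were lower in Sirt1KO Otx2KD and 12 (19.0%) higher (median -0.13), beside 31.5% and 31.1% of all tested loci. Centring each chromosome on its own median turned the sign of Mrpl12, on chromosome 11, to 0.098 in EpiLC and 0.27 in Sirt1KO minus wild-type ESC. It left Mrps24 lower in every comparison with wild-type ESC. The 6 members on chromosome 6, where the median over 575 loci was 0.15 in Sirt1KO minus wild-type ESC, had a median of 0.24 there.

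**Figure D5:**
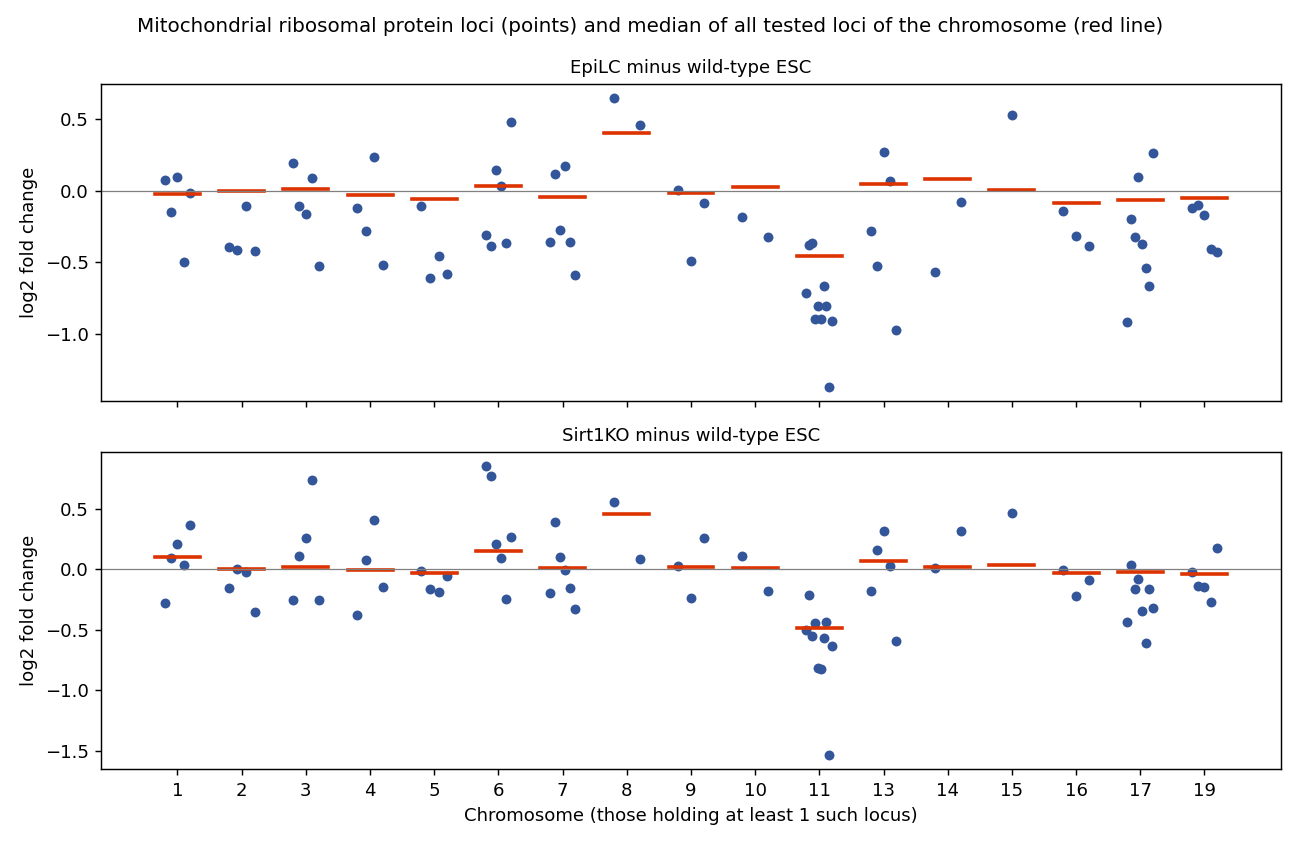
Log2 change of each member (points) by chromosome and the median over all tested loci of that chromosome (red line), for EpiLC and Sirt1KO minus wild-type ESC. All 10 points of chromosome 11 lie below 0 in both panels, around medians of -0.46 and -0.49 over all its loci.

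Some members share their place with another gene. The listed intervals of 8 members hold another named locus, and 30 have one within 1000 bp without overlap. Whether strand was used in the counting is not stated, so reads of overlapping loci may not be separable. Mrpl13 lies 79 bp from Mtbp, which changed by 0.46, 0.15 and -0.34 in EpiLC minus wild-type ESC, Sirt1KO minus wild-type ESC and Sirt1KO Otx2KD minus Sirt1KO, beside 0.53, 0.47 and -0.60 for Mrpl13. Mrps12 lies 136 bp from Sars2, the mitochondrial seryl-tRNA synthetase, which changed by -0.38, -0.16 and 0.23, the same signs as Mrps12. Mrpl43 lies 115 bp from Peo1, the mitochondrial DNA helicase, which changed by 0.21 in EpiLC and -0.018 under the knockdown, beside -0.41 and 0.40 for Mrpl43. Mrpl24 and Mrpl41 also share intervals, with Rrnad1 and with the merged locus of Wdr85 and Zmynd19. So do Mrpl16 with Stx3, Mrpl48 with Rab6a, Mrpl49 with Syvn1, Mrps25 with Nr2c2 and Mrps27 with 6430562O15Rik. The values of all these members are uncertain. Mrpl53 is listed only in a merged locus with Ccdc142, outside the name pattern, at 80.6 ± 3.996, 63.5 ± 0.539, 64.6 ± 3.69 and 67.0 ± 2.82 FPKM in wild-type ESC, EpiLC, Sirt1KO and Sirt1KO Otx2KD.

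The changes were also counted by promoter motif, and the difference between members with and without one was not tested. Over all tested loci 38.8% were lower and 35.8% higher in EpiLC than in wild-type ESC, and 31.5% and 31.1% under the knockdown. In EpiLC 13 of the 20 members with the YY1 motif were lower than in wild-type ESC and 3 higher (median log2 change -0.28), and 29 of the 46 without it were lower and 3 higher (median -0.34). For the ETS motif the counts were 13 lower and 3 higher of 23 with it (median -0.36), and 29 lower and 3 higher of 43 without (median -0.32). Under the knockdown of Otx2 10 of 20 with the YY1 motif were lower and 5 higher (median -0.14), and 19 of 46 without it were lower and 8 higher (median -0.12).

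Other nuclear genes of mitochondrial translation were counted in lists. Beside these counts, 38.8% of all tested loci were lower and 35.8% higher in EpiLC than in wild-type ESC, and 31.5% and 31.1% under the knockdown. Of 7 further mitoribosomal proteins with other names, 1 was lower and 2 higher in EpiLC than in wild-type ESC (median log2 change 0.053). The 1 that was lower, Ict1, a release factor built into the large subunit and located on chromosome 11, fell from 115 ± 3.18 to 50.1 ± 1.69 FPKM (-1.19 ± 0.036). All tested loci of that chromosome had a median of -0.46 in the same comparison. Of 14 tested translation factors 7 were lower and 2 higher in EpiLC (median -0.12), and 9 were lower and 1 higher under the knockdown (median -0.19). Guf1, a homologue of the bacterial elongation factor LepA, rose from 6.80 ± 0.253 to 11.2 ± 0.223 FPKM in EpiLC and fell from 10.3 ± 0.431 to 6.13 ± 0.374 FPKM under the knockdown (0.65 ± 0.059 and -0.67 ± 0.059). Of 21 assembly and rRNA modification factors 10 were lower and 5 higher in EpiLC (median -0.15), and 13 were lower and 2 higher under the knockdown (median -0.22). Fastkd2, which binds the large ribosomal RNA of mitochondria, fell from 25.7 ± 0.359 to 14.9 ± 0.0644 FPKM under the knockdown (-0.75 ± 0.054).

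The lists further from the ribosome varied in direction. Of 17 mitochondrial aminoacyl-tRNA synthetases 8 were lower and 5 higher in EpiLC than in wild-type ESC (median -0.036), and 8 were lower and 3 higher under the knockdown (median -0.10). Of 18 factors of mitochondrial DNA and RNA maintenance 3 were lower and 6 higher in EpiLC (median 0.073), and 10 were lower and 2 higher under the knockdown (median -0.17), among them Ssbp1, the mitochondrial single-stranded DNA binding protein, from 31.02 ± 1.06 to 21.2 ± 0.418 FPKM (-0.53 ± 0.041). Of 17 import and protein quality factors 5 were lower and 5 higher in EpiLC (median -0.030), and 8 were lower and 2 higher under the knockdown (median -0.11). Of 10 nuclear regulators of mitochondrial genes 1 was lower and 5 higher in EpiLC (median 0.13), led by Myc from 1.38 ± 0.399 to 8.49 ± 1.07 FPKM (2.00 ± 0.15). In Sirt1KO minus wild-type ESC the counts lower and higher were 2 and 2 for further mitoribosomal proteins, 6 and 5 for translation factors, 7 and 7 for assembly factors, 3 and 5 for synthetases, 4 and 8 for maintenance, 7 and 6 for import and 4 and 2 for regulators. The background shares and medians are those given with each comparison above.

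Ribosomal proteins of the cytosol were counted beside them. Of 83 tested loci 32 (38.6%) were lower and 15 (18.1%) higher in EpiLC than in wild-type ESC (median log2 change -0.052). Of all tested loci 38.8% were lower and 35.8% higher, and of the 75 mitochondrial ones 47 were lower and 9 higher. In Sirt1KO 10 of the 83 (12.0%) were lower and 45 (54.2%) higher (median 0.16), where 32.7% of all tested loci were lower and 32.4% higher. Under the knockdown 47 (56.6%) were lower and 7 (8.43%) higher (median -0.19), where 31.5% of all tested loci were lower and 31.1% higher. Rpl32 rose from 817 ± 6.31 to 1101 ± 22.1 FPKM in Sirt1KO (0.43 ± 0.028), while Rpl26, on chromosome 11, fell from 331 ± 16.7 to 234 ± 2.36 FPKM (-0.50 ± 0.041). All tested loci of chromosome 11 had a median of -0.49 in the same comparison, close to the change of Rpl26. Under the knockdown Rpl22l1, a paralog of Rpl22, fell from 210.5 ± 6.82 to 124 ± 8.90 FPKM (-0.76 ± 0.060). Cytosolic ribosomal protein genes have many near-identical copies that can take reads from each other, so these levels are uncertain, and the difference between the lists was not tested.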

How the data were processed

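RNA-seq libraries of 12 mouse samples, 3 in each of 4 groups, were analysed from the deposited tables, which hold 1 FPKM value per locus and library. The submitters' processing notes name TopHat, Cufflinks, Cuffdiff and the mouse build mm9, and versions are not given in the sources used here. FPKM were made by the authors before deposit, so read counts and absolute depth are unknown, and how libraries were scaled to each other is not given in the sources used here. The 4778 loci with no gene name, which hold over 95% of the summed FPKM of each library, were left out of the tests.

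The 12320 named loci with 3 or more library values at 1 FPKM or above were tested with limma 3.58.1 in R 4.3.3 on log2(FPKM + 1), a pseudocount of 1, with 1 mean per group, trended and robust empirical Bayes, 8 residual degrees of freedom and Benjamini-Hochberg adjustment at 0.05. The procedure was also run on simulated data with normal errors, and no call given here rests on that run. No 2 libraries held identical values.

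The members and the gene lists were chosen with earlier results of these data known. The subunit classes and the trimmed list of cytosolic ribosomal proteins were set after values were seen. Members are named by rule: per comparison the 4 called higher and the 4 called lower with the largest changes and no overlap of groups, the 5 highest and 5 lowest levels, those nearest the filter, and those whose place or paralogs are special. Further members named as examples of a class were chosen after their values were seen. Lists other than the members give up to 3 genes with the largest test statistic per comparison.

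Whether replicate numbers pair the libraries is not given in the sources used here. Of 18 same-numbered pairs, 2 had a correlation of deviations over 0.1 (range -0.11 to 0.17), both between wild-type ESC and EpiLC. With 3 libraries a group these correlations cannot exclude pairing. Alternatives covered the pseudocount, filter, scaling, trend, libraries, chromosome medians and replicate block. Motifs were searched on both strands of RefSeq promoter windows of build GRCm38.p6.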

Additional observations from a re-analysis of the deposited data

How the results depend on the processing

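Most values kept their direction and side of the threshold. Of 158 calls of named members, recomputed as 3318 values under the alternatives, 3206 kept their call, 106 lost it and 6 changed sign, all 6 with each chromosome centred on its own median: Mrpl12 in EpiLC minus wild-type ESC (0.098) and in Sirt1KO minus wild-type ESC (0.27), and, in Sirt1KO Otx2KD minus wild-type ESC, Mrps7 (0.034), Mrps35 (-0.0023), Mrps31 (-0.019) and Mrpl34 (-0.12). The same centring gave 5 members higher in Sirt1KO Otx2KD than in wild-type ESC in place of 8, a median of -0.23 for EpiLC minus wild-type ESC and of -0.021 for EpiLC minus Sirt1KO Otx2KD. Quantile normalization gave 14 members higher in EpiLC than in wild-type ESC (median -0.21), and medians of -0.11 and -0.021 for EpiLC minus Sirt1KO and minus Sirt1KO Otx2KD. Without members on chromosomes 8 and 11 the median of EpiLC minus wild-type ESC was -0.27, that of Sirt1KO minus wild-type ESC -0.021, and the large minus small subunit median in EpiLC minus wild-type ESC 0.19 in place of 0.11. The cause of these shifts was not tested.

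Leaving out each library in turn gave 44 to 49 members lower and 8 to 10 higher in EpiLC minus wild-type ESC, 28 to 32 and 15 to 18 in Sirt1KO minus wild-type ESC, and 25 to 33 and 11 to 18 in Sirt1KO Otx2KD minus Sirt1KO. The large minus small subunit median ran from 0.11 to 0.19 in EpiLC minus wild-type ESC, with the highest value without EpiLC replicate 3, and from 0.015 to 0.11 in Sirt1KO minus wild-type ESC, with the lowest value without wild-type ESC replicate 1. In Sirt1KO Otx2KD minus Sirt1KO it stayed between -0.26 and -0.19. The median of Sirt1KO minus wild-type ESC ran from -0.14 (without Sirt1KO replicate 2) to -0.081. With a replicate block, 48 members were lower and 9 higher in EpiLC minus wild-type ESC, 30 and 15 in Sirt1KO minus wild-type ESC and 31 and 15 in Sirt1KO Otx2KD minus Sirt1KO. Whether the replicate numbers pair the libraries is not known.

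Absolute depth is unknown, and 3 libraries a group leave small differences uncalled. A value not called does not show equal levels.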
